A study of Mus musculus with 25 samples.

Results

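The transcripts of 9 mouse genes of the poly(ADP-ribose) polymerase (PARP) family were followed through macrophage activation: Parp1, Parp3, Parp8, Parp9, Parp10, Parp11, Parp12, Parp14 and Tiparp. They were picked by symbol from the 24411 genes counted, and all 9 had reads in every one of the 25 RNA-seq libraries. The libraries form 9 groups. Bone marrow-derived macrophages (BMDMs) of C57BL/6 mice, differentiated with 25 ng/ml M-CSF for 4 days, make up 7 groups of 3 libraries. These are control BMDMs cultured for 4 h, BMDMs given 100 U/ml IFN-γ and 100 ng/ml LPS (IFN-γ-primed LPS) for 1, 4, 12 or 24 h, and BMDMs given IL-4 or IL-13 at 10 ng/ml for 12 h. RAW264.7 cells, a mouse macrophage cell line, make up the other 2 groups, each of 2 libraries: a control cultured for 4 h and cells given 100 ng/ml LPS for 4 h, without IFN-γ. Per the paper, RAW264.7 came from Balb/c mice infected with Abelson murine leukemia virus and grew in RPMI, while BMDMs grew in DMEM. The sources used here do not give the length of the priming, and the 4 h control is the reference for every BMDM time point. They describe the BMDM replicates as independent RNA samples but do not say how many mice they came from. P-values in BMDMs therefore measure the spread between these samples, and the test also shares information on spread between genes.

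PARP enzymes cut NAD+ and pass its ADP-ribose part on to proteins. Some members, such as Parp1, build long chains of ADP-ribose, while most attach a single unit, and a few have no known catalytic activity of their own. Parp1 and Parp3 are known for work at DNA breaks. Parp9, Parp10, Parp12 and Parp14 are known as genes that interferons induce, and several of them restrict viruses. Tiparp was named for its induction by dioxin through the aryl hydrocarbon receptor (AHR), whose activity it limits.

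Reads counted on genes ran from 2378639 to 3357300 per library. The ribosomal precursor Rn45s took 20.1% to 39.8% of them and was left out, which left 1502618 to 2532496 counts. Levels are given as CPM, in which each library's counts are brought to a common total, with TMM factors of 0.717 to 1.32. Parp14 had 141 to 5635 reads in the BMDM libraries, while Parp1 had as few as 5 and Parp3 as few as 7. The 8 macrophage markers listed summed to 18939 to 32893 CPM in BMDMs and to 8532 to 10265 CPM in RAW264.7, where Mertk was at 0. The T cell markers Cd3d, Cd3e and Cd8a and the B cell marker Ms4a1 were at 0 in every library. The 6 T and NK cell markers found summed to 10.2 to 13.4 CPM in control BMDMs and to 2.10 to 2.93 CPM at 24 h of IFN-γ-primed LPS, and the 1 of them tested, Cd4, was called down at 12 h (-1.49) and 24 h (-2.06). Fibroblast markers summed to 50.8 to 105 CPM in BMDMs and to 0 in RAW264.7. The summed level of 5 dendritic cell markers, which include the inducible chemokine receptor Ccr7, was at most 0.543 CPM in control BMDMs and 5.31 to 11.5 CPM after 4 h of IFN-γ-primed LPS, 13.3 to 25.3 CPM after 12 h and 17.4 to 21.0 CPM after 24 h, with Siglech at 0 throughout the BMDMs. That of 6 neutrophil and progenitor markers was 13.03 to 22.5 CPM in control BMDMs and 37.3 to 50.02 CPM at 4 h. Their part in the results was not tested, and in bulk RNA fewer cells of a type and less RNA per cell cannot be told apart. The share of Rn45s reads on the opposite strand was 0.0386% to 0.122% in control, 1, 4 and 12 h BMDMs but 0.00603% to 0.0214% in the 24 h, IL-4 and IL-13 libraries. Whether this library difference has a part in the comparisons of those groups was not tested.

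IFN-γ-primed LPS raised nearly the whole set and lowered Parp1. At 4 h, 8 of 9 genes were higher and Parp1 was lower than in control BMDMs (edgeR quasi-likelihood test, adjusted p at most 0.01 over all genes tested, the rule for every call). The background at that time was 26% of 9568 genes called up and 25.6% called down. At 1 h, 7 were up and 1 was down, with a background of 14.7% up and 11.3% down. At 12 h, 8 were up and 1 was down, against 23.9% and 23.4% of all genes. At 24 h, 8 were up and 0 down, against 23.9% and 21.3%. The median log2 fold change of the 9 genes went from 1.02 (1 h) to 2.88 (4 h), 3.28 (12 h) and 2.84 (24 h), while the median over all genes stayed between -0.08 and 0.02. In every call at these 4 times the 3 treated libraries lay apart from the 3 controls. The share of all genes that lay apart in this way was not counted. The 9 members were chosen with earlier results of these data known, so their counts beside the background are a description. Of 6 other family genes tested at 4 h, 1 was called up and 3 were called down.

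**Figure D1:**
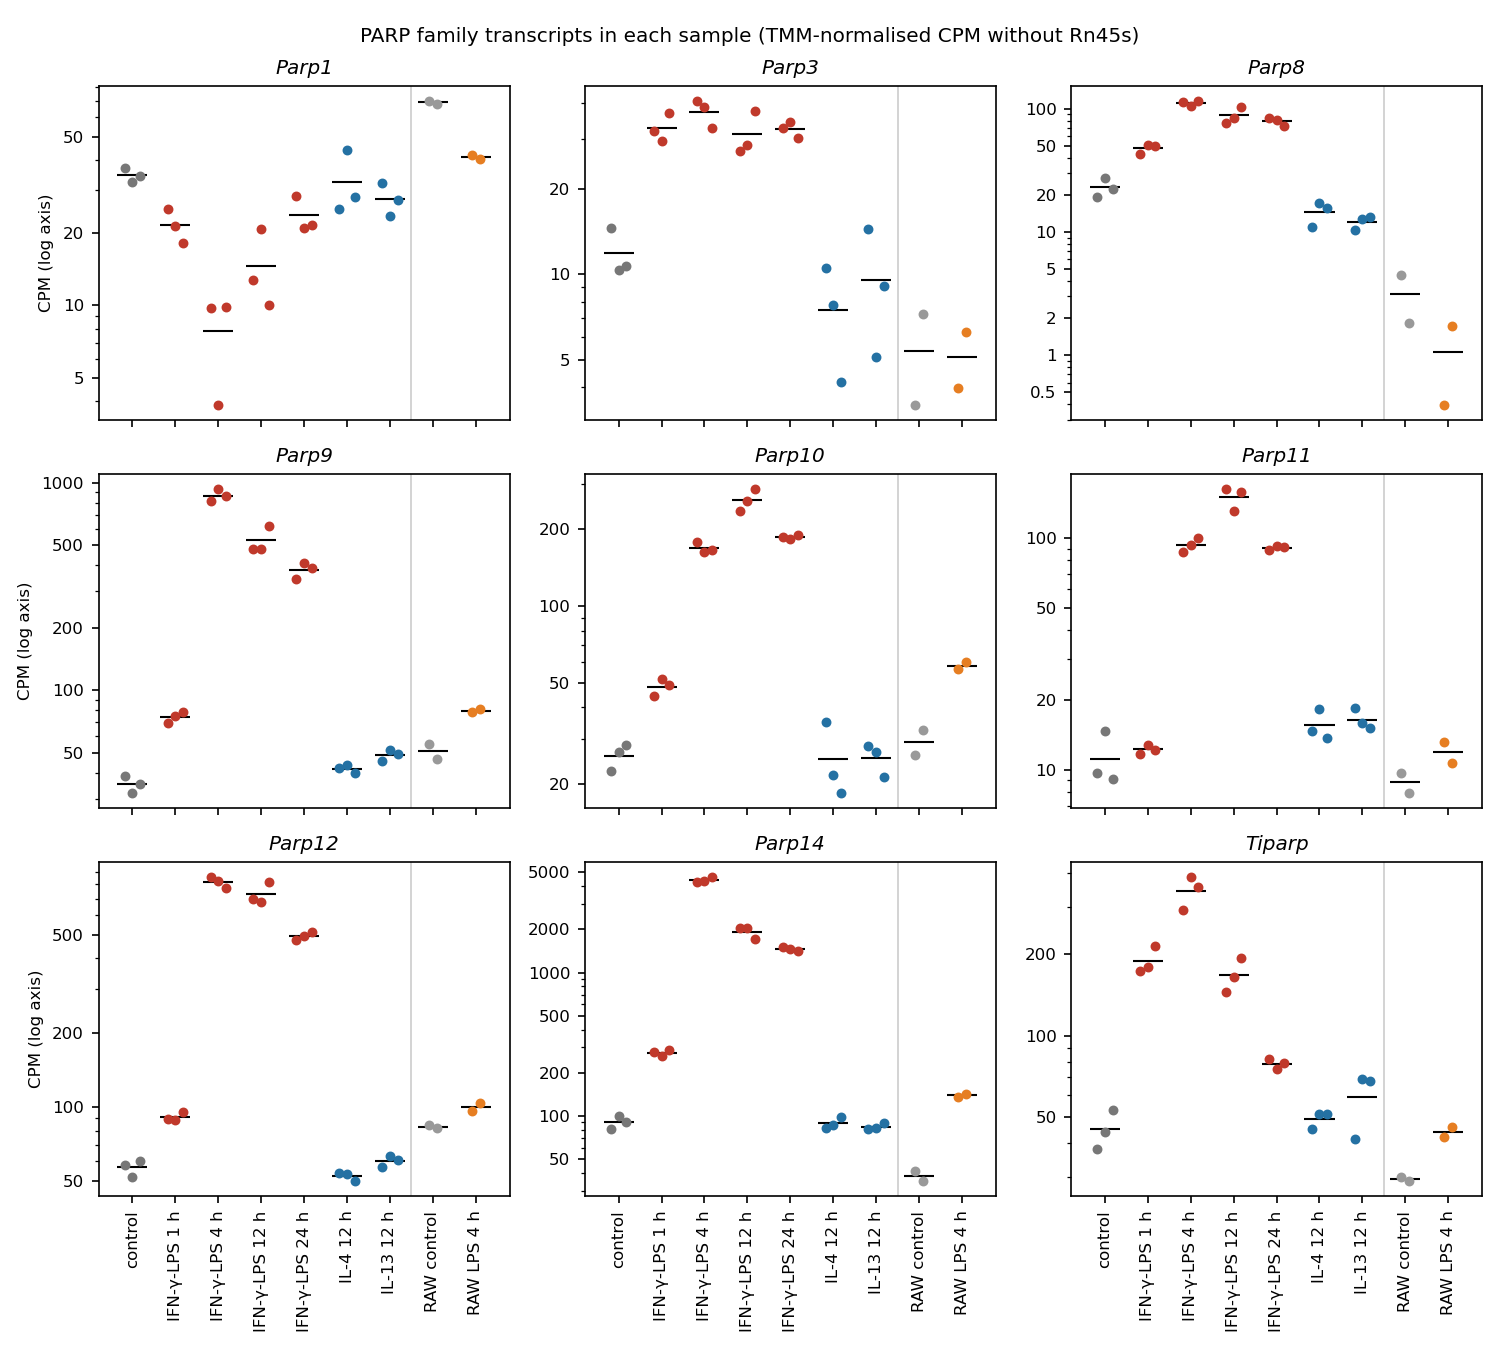
Level of each gene in each of the 25 libraries, as TMM-normalised CPM on a log axis, with 1 point per library and a bar at the group mean. Parp14 reaches 4306 to 4621 CPM at 4 h of IFN-γ-primed LPS from 80.5 to 98.8 CPM in control BMDMs, while Parp1 runs the other way.

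Parp14, a large protein with macrodomains that bind ADP-ribose and a known cofactor of STAT6 in IL-4 signalling, had the largest rise of the 9. Its level was 80.5, 98.8 and 89.9 CPM in the control libraries and 279, 262 and 287 CPM at 1 h. It reached 4306, 4367 and 4621 CPM at 4 h, stood at 2033, 2036 and 1706 CPM at 12 h and at 1501, 1467 and 1402 CPM at 24 h. All 12 stimulated libraries lay above all 3 controls, and the 4 time points did not overlap one another. Against control, Parp14 changed by 1.59 ± 0.11 (log2 fold change ± SE, n = 3 against 3) at 1 h, by 5.57 ± 0.11 at 4 h, by 4.38 ± 0.11 at 12 h and by 4.02 ± 0.10 at 24 h, with an edgeR adjusted p of 2.5e-39 at 4 h.

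Among the binding sites the study searched for are strings for IRF1 and RELA at Parp14, whose genome positions were not derived here. The paper reports IRF1 motifs, and likewise RELA motifs, in most of the genes it found upregulated at every time point. Such strings therefore do not set Parp14 apart from those genes. They are shown because Parp14 had the largest change among the 9, in capitals throughout as they are motif letters.
IRF1: GAAAGCGAAAGA
RELA: AGGGATTTCC
The binding of these factors was not measured in the files analysed here.

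Parp9, a macrodomain protein that works with the ubiquitin ligase Dtx3l, rose from 38.7, 32.0 and 35.3 CPM in control BMDMs to 69.3, 75.3 and 78.4 CPM at 1 h. At 4 h it was at 811, 928 and 857 CPM, at 12 h at 479, 480 and 619 CPM and at 24 h at 343, 409 and 387 CPM. No library of one time point fell within the range of another. Parp9 had a log2 fold change of 4.56 ± 0.12 at 4 h (adjusted p = 6.6e-34) and 3.42 ± 0.12 at 24 h. Dtx3l was at 63.3, 82.5 and 71.1 CPM in control BMDMs and at 1255, 1372 and 1263 CPM at 4 h, a log2 fold change of 4.11 ± 0.11. It fell back to 603, 694 and 695 CPM at 24 h, still 3.19 ± 0.11 above control on the log2 scale.

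In GENCODE M21 on the mm10 (GRCm38) build, Parp9 (chr16:35938470-35972605, plus strand) and Dtx3l (chr16:35926511-35939151, minus strand) overlap by 682 bases at their starts. Parp14 (chr16:35832874-35871544, minus strand) lies 55.0 kb from Dtx3l. These are the 3 genes with a log2 fold change above 4 at 4 h among the 9 members and their listed partners. The counts used here are kept apart by strand, so reads of Dtx3l on its own strand were not counted for Parp9.

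Parp12, a zinc finger PARP known to restrict viruses, followed at a lower fold change and held its level longer. The control libraries had 58.0, 52.1 and 60.4 CPM and the 1 h libraries 89.4, 88.8 and 95.1 CPM. At 4 h the level was 854, 828 and 775 CPM, and at 12 h it was 695, 678 and 821 CPM, so that these times overlapped. At 24 h it was 475, 492 and 511 CPM, below both. On the log2 scale Parp12 was up by 0.65 ± 0.12 at 1 h, by 3.79 ± 0.11 at 4 h (adjusted p = 4.4e-33), by 3.64 ± 0.11 at 12 h and by 3.11 ± 0.11 at 24 h. Zc3hav1, the zinc finger antiviral protein and a PARP relative without catalytic activity, lies 732 kb from Parp12 on chromosome 6. It rose less, by 2.15 ± 0.11 at 4 h and 0.91 ± 0.11 at 24 h, from 84.8, 86.3 and 94.7 CPM to 409, 386 and 433 CPM at 4 h.

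Parp11, a member that attaches single ADP-ribose units, was the slowest to rise. Its levels were 9.66, 14.7 and 9.09 CPM in control BMDMs and 11.7, 12.9 and 12.1 CPM at 1 h, which overlap. They were 86.8, 93.1 and 100.0 CPM at 4 h, 162, 131 and 158 CPM at 12 h and 89.0, 91.9 and 91.3 CPM at 24 h. Parp11 had a log2 fold change of 0.10 ± 0.25 at 1 h, where the 95% interval ran from -0.40 to 0.61 (adjusted p = 0.79), 3.01 ± 0.18 at 4 h and 3.71 ± 0.16 at 12 h. The 12 h libraries lay above all others.

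The 250 bases before the start of Parp11 and of Parp12 are set side by side because both genes rose late and strongly and because RefSeq and GENCODE place their starts at the same base. Capitals mark matches to the interferon-stimulated response element (GAAA, any 2 bases, GAAA) or to the gamma-activated site TTCNNNGAA, searched on both strands.
Parp11 (chr6:127446590-127446839, plus strand): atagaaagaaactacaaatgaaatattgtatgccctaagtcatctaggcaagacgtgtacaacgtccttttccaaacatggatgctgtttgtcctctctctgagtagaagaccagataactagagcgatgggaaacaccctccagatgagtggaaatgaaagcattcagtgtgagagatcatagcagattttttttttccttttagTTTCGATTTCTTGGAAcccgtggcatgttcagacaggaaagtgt
Parp12 (chr6:39118350-39118599, minus strand): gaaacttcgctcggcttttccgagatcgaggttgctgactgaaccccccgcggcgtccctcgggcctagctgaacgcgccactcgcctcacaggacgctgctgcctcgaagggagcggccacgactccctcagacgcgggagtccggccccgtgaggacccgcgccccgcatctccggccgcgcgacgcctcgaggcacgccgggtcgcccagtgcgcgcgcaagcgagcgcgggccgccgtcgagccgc
The Parp11 window shown holds a match to the response element on the opposite strand, 44 to 35 bases before the start. It also holds an overlapping match to the gamma-activated site, 37 to 29 bases before the start. The Parp12 window holds neither. A second Parp11 window in the RefSeq table (chr6:127453377-127453626, plus strand) also holds neither. Over the 32851 promoter windows of this length in the RefSeq table of GRCm38.p6, 2.98% hold the response element and 7.02% the gamma-activated site. The kappa B site (GGGA, any 2 bases, TTCC) is in 1.21% of them and the STAT6 site (TTC, any 4 bases, GAA) in 5.85%, and neither is in the windows of the 6 members the table has. Parp9, Parp10 and Parp14 have no entry there. A match is a run of letters and does not show that a factor binds there.

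Parp10, which also attaches single ADP-ribose units, rose from 22.5, 26.6 and 28.3 CPM to 44.2, 51.5 and 49.1 CPM at 1 h and to 179, 162 and 166 CPM at 4 h. Its highest levels were 236, 257 and 287 CPM at 12 h, and 187, 183 and 190 CPM followed at 24 h. As for Parp11, the 12 h libraries were all above those of 4 and 24 h. Parp10 was up by 2.65 ± 0.13 on the log2 scale at 4 h and by 3.28 ± 0.13 at 12 h. Parp8, whose function is little known, went from 19.3, 27.1 and 22.5 CPM to 42.5, 50.8 and 50.1 CPM at 1 h and 113, 106 and 115 CPM at 4 h. At 12 h it was at 76.8, 83.8 and 103 CPM and at 24 h at 84.1, 80.5 and 72.0 CPM, and these times overlap. Its log2 fold change was 2.22 ± 0.16 at 4 h and 1.77 ± 0.15 at 24 h.

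Tiparp had the largest log2 fold change of the 9 at 1 h, and the smallest share of its rise was left at 24 h. It was at 38.1, 44.0 and 53.0 CPM in control BMDMs, 173, 179 and 214 CPM at 1 h and 293, 386 and 355 CPM at 4 h. At 12 h it was at 146, 165 and 194 CPM, overlapping the 1 h libraries, and at 24 h at 82.1, 75.05 and 79.1 CPM, still above all controls. Its log2 fold change of 2.04 ± 0.13 at 1 h (adjusted p = 5.1e-18) went on to 2.88 ± 0.13 at 4 h, and then back to 1.85 ± 0.13 at 12 h and 0.80 ± 0.14 at 24 h.

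A stretch of 100 bases of the Tiparp promoter is shown because the gene is known as an AHR target. Capitals mark the letters CACGC, which read as the AHR core GCGTG on the opposite strand, 170 to 166 bases before the RefSeq start.
Tiparp (chr3:65528227-65528326, plus strand): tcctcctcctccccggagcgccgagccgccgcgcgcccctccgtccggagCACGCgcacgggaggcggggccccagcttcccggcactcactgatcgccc
The core is short and 28.2% of all promoter windows hold it, as do those of Parp1, Parp3, Parp8 and Parp12 and the second of 2 Parp11 windows. Of 8 AHR pathway genes listed, 3 were tested and 0 were called up or down by edgeR at 1 or 4 h. At 12 h 1 of the 3 was called up and at 24 h 2 were, with 0 down at both times. Ahr itself was among those at 24 h, up by 1.28 ± 0.38 on the log2 scale.

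Parp3 rose early and stayed level. Its levels were 14.5, 10.3 and 10.7 CPM in control BMDMs, 31.9, 29.6 and 36.9 CPM at 1 h and 40.7, 38.8 and 32.8 CPM at 4 h. Later times had 27.1, 28.6 and 37.6 CPM (12 h) and 32.7, 34.3 and 30.3 CPM (24 h). The 12 stimulated libraries overlap one another and none reaches down to a control. The log2 fold change lay between 1.35 ± 0.21 at 12 h and 1.60 ± 0.22 at 4 h.

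Parp1, the main DNA-damage PARP, was the 1 gene of the 9 that fell with IFN-γ-primed LPS. It was at 37.0, 32.6 and 34.2 CPM in control BMDMs, 25.2, 21.2 and 18.2 CPM at 1 h and 9.74, 3.88 and 9.84 CPM at 4 h, or 11, 5 and 12 reads. It then stood at 12.7, 20.8 and 10.0 CPM at 12 h and at 28.3, 20.9 and 21.5 CPM at 24 h. All 12 stimulated libraries were below the 3 controls. Its log2 fold change was -0.72 ± 0.20 at 1 h and -2.21 ± 0.28 at 4 h (adjusted p = 1.9e-09). It was -1.31 ± 0.22 at 12 h and -0.56 ± 0.19 at 24 h, where it missed the threshold (adjusted p = 0.012). The fall at 1 h was not called without control replicate 1 or 3 or 1 h replicate 2 or 3 (-0.67, -0.73, -0.71 and -0.58), nor by DESeq2 (-0.70, adjusted p = 0.040). The fall at 24 h was called without 4 h replicate 2, 12 h replicate 2 or 3 or 24 h replicate 1 (-0.56, -0.55, -0.55 and -0.70).

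**Figure D2:**
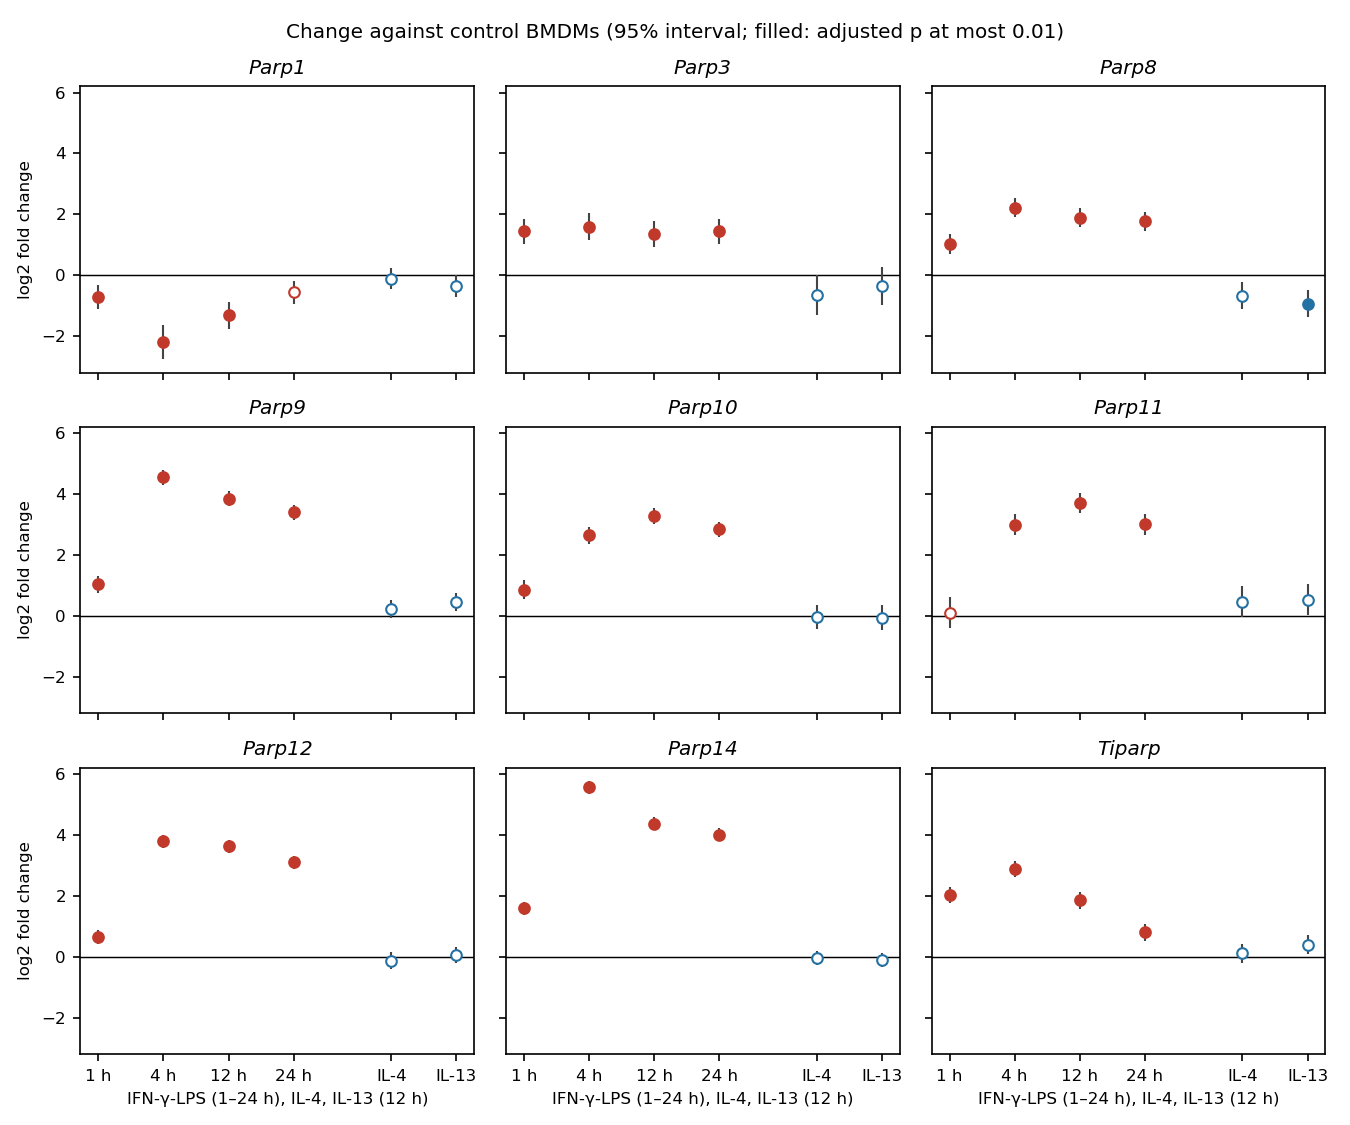
Log2 fold change of each gene against control BMDMs for IFN-γ-primed LPS at 1, 4, 12 and 24 h (red) and for IL-4 and IL-13 at 12 h (blue), with 95% intervals from edgeR. Filled points passed the adjusted p of 0.01. Parp10 and Parp11 are highest at 12 h, Tiparp drops to 0.80 by 24 h, and of the IL-4 and IL-13 points 1 is filled, Parp8 with IL-13.

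The genes differed in how much of their 4 h change was already present at 1 h. Parp3 had 81.8% of it (69.3% to 97.9% over the 3 libraries at 1 h, against the group means of control and 4 h), Parp1 48.8% of its fall and Tiparp 48.0% of its rise. Parp8 had 28.1% and Parp10 15.6%. The figure was 4.70% for Parp9, 4.49% for Parp12, 4.29% for Parp14 and 1.35% for Parp11. At the other end, 11.3% of the highest rise of Tiparp was left at 24 h, 31.5% of that of Parp14 and 41.4% of that of Parp9. Parp3 kept 80.5% and Parp10 68.6%.

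The steps between times were tested in the same fit. From 1 to 4 h, 7 of 9 genes rose further and Parp1 fell, with a background of 19.8% up and 19.1% down. From 4 to 12 h, Parp10 and Parp11 rose by 0.63 ± 0.10 and 0.70 ± 0.12, and Parp9, Parp14 and Tiparp fell by 0.71, 1.19 and 1.03 on the log2 scale. The background was 16.7% up and 19.2% down. Without 12 h replicate 3, Parp1 was called up (1.12) and Parp8 down (-0.44). From 12 to 24 h, 0 genes rose and 6 fell (Parp9, Parp10, Parp11, Parp12, Parp14 and Tiparp), where the background was 5.31% up and 8.9% down. Tiparp fell most at this step, by 1.05 ± 0.12. One of the 9 rose at an unadjusted p under 0.05, Parp1 with 0.75 ± 0.23 (adjusted p = 0.015), and DESeq2 called 0 up. Without 12 h replicate 2, Parp1 was called with 1.09. The fall of Parp14, -0.36 ± 0.09, was lost without 12 h replicate 1 or 2 or 24 h replicate 3 (-0.32, -0.32 and -0.34), and without TMM (-0.28, adjusted p = 0.013).

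Divided by exon length, the levels can be compared roughly between genes. Exon lengths were those of GENCODE M21, from 3.70 kb for Parp3 to 9.31 kb for Parp14. They join all exons of a gene and may differ from the transcripts expressed and from the gene models counted. The 9 genes together summed to 61.4 ± 2.30 CPM per kb (SD, n = 3) in control BMDMs and 142 ± 8.50 at 1 h. The sum was 1015 ± 21.6 at 4 h, then 640 ± 29.5 (12 h) and 454 ± 5.33 (24 h). In control BMDMs Parp12 held the largest share, 23.2% ± 1.48, ahead of Tiparp with 16.8% ± 2.16 and Parp14 with 15.7% ± 1.59. At 1 h Tiparp led with 30.3% ± 1.69. At 4 h Parp14 made up 46.9% ± 1.45, Parp12 20.2% ± 1.34 and Parp9 17.5% ± 0.890, while Parp1 went from 10.7% ± 0.934 in control to 0.146% ± 0.0650. At 24 h Parp14 still led with 34.4% ± 1.36. These shares do not depend on the scaling of the libraries, since each is taken within a library.

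**Figure D3:**
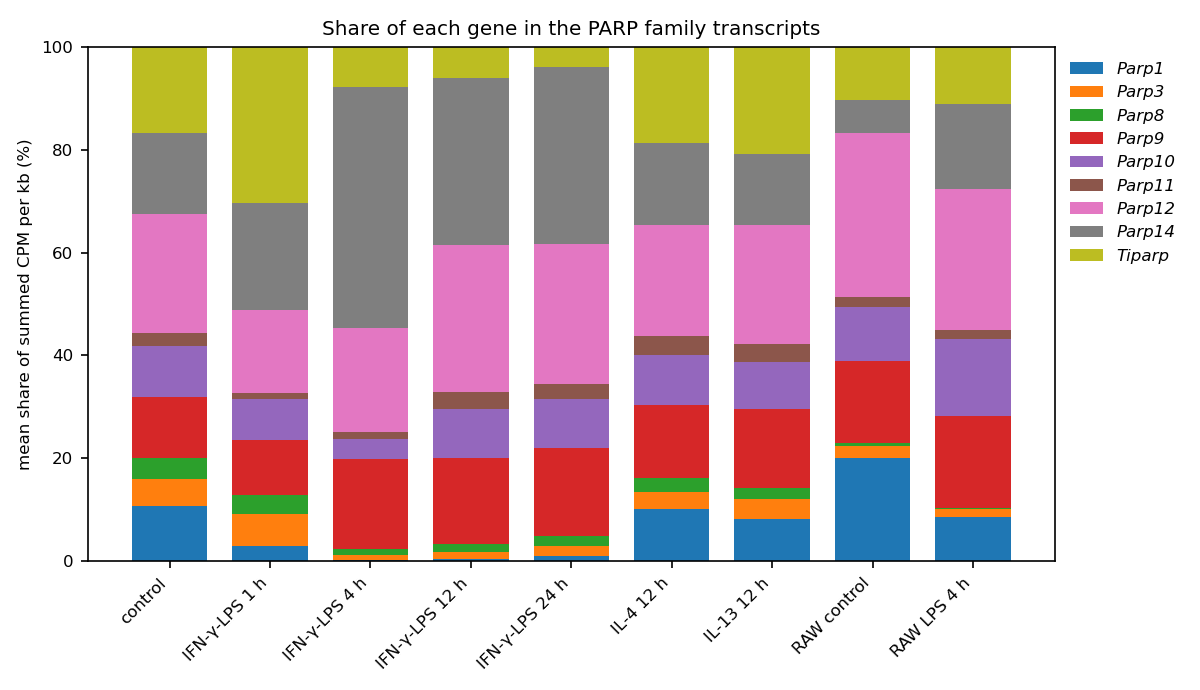
Mean share of each of the 9 genes in their summed CPM per kb of exon, by condition (percent of the sum, stacked to 100%). Parp14 (grey) grows from 15.7% in control BMDMs to 46.9% at 4 h of IFN-γ-primed LPS, while the IL-4 and IL-13 bars stay near the control bar.

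IL-4 and IL-13, which induce the alternative state of macrophages, changed at most 1 of the 9 genes by the test used. A count this low is near the share of all genes called with each stimulus. With IL-4, 0 of 9 genes were called by edgeR, where 4.38% of 9252 genes were called up and 3.25% down. At an unadjusted p under 0.05 there was 1, Parp8, and DESeq2 called 0. With IL-13, Parp8 was the 1 gene called, downward, against a background of 5.61% up and 4.49% down. At an unadjusted p under 0.05 there were 4 genes with IL-13, 3 of them up, and DESeq2 called 0. Parp8 stood at 11.0, 17.2 and 15.5 CPM with IL-4 and at 10.4, 12.8 and 13.2 CPM with IL-13, all below the 3 controls. The log2 fold change was -0.67 ± 0.22 with IL-4 (adjusted p = 0.032) and -0.93 ± 0.23 with IL-13 (adjusted p = 0.0019). The second was not called without control replicate 2 (-0.79) or by DESeq2 (-0.92, adjusted p = 0.039).

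Parp14 stayed at 82.2, 86.2 and 97.2 CPM with IL-4 and 81.1, 82.4 and 88.6 CPM with IL-13, within the range of the controls. Its log2 fold change with IL-4 was -0.03, with a 95% interval from -0.27 to 0.20. Parp9 was above the controls in all 6 libraries, at 41.9, 43.4 and 40.0 CPM with IL-4 and 45.5, 51.7 and 49.1 CPM with IL-13, but missed the threshold (0.45 ± 0.15 with IL-13, adjusted p = 0.029). Parp11 was also above all controls with IL-13, at 18.4, 15.9 and 15.2 CPM, and missed the threshold (0.54 ± 0.25, adjusted p = 0.14). Dtx3l, the partner of Parp9, was called with IL-13 (0.44 ± 0.12, adjusted p = 0.0053). Tiparp was at 41.4, 69.1 and 67.8 CPM with IL-13 and was called without IL-13 replicate 1 (0.59). Between IL-13 and IL-4, 0 of 9 genes were called by edgeR, 0 had an unadjusted p under 0.05 and DESeq2 called 0. The background there was 0.0865% up and 0.0216% down. The widest 95% interval of that difference was that of Parp3, from -0.39 to 0.97.

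At 12 h, IFN-γ-primed LPS and the alternative stimuli can be compared directly. Against IL-4, 8 of 9 genes were higher with IFN-γ-primed LPS and Parp1 was lower, where 22.1% of 9380 genes were called up and 20.6% down. Against IL-13 the counts were also 8 and 1, with 21.9% and 20.3% of all genes. Parp14 differed by 4.45 ± 0.12 from IL-4 and by 4.53 ± 0.12 from IL-13, and Parp9 by 3.66 ± 0.13 and 3.44 ± 0.13. Parp1 differed by -1.16 ± 0.25 and -0.93 ± 0.25. The second value was not called without IFN-γ-primed LPS 12 h replicate 1 or 3 or IL-13 replicate 1 (-0.84, -0.72 and -0.82), nor by DESeq2 (-0.92, adjusted p = 0.011).

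In RAW264.7 cells given LPS for 4 h, Parp9, Parp10, Parp14 and Tiparp rose and Parp1 fell. Parp8 had 13 and 5 reads in the controls and 1 and 5 with LPS and was not tested. Of the other 8 genes, 4 were called up and 1 down, where 15.1% of 9406 genes were up and 12.8% down. Parp14 was at 41.3 and 35.2 CPM in the controls and at 136 and 142 CPM with LPS, a log2 fold change of 1.90 ± 0.12 (adjusted p = 5.0e-51). In this fit of 4 libraries the spread was pooled over genes rather than taken from each gene's own libraries. Its p-values are therefore not to be set beside those of the BMDM fits. Parp10 went from 26.03 and 32.6 to 56.5 and 60.0 CPM (1.03 ± 0.15), and Parp9 from 54.8 and 46.8 to 78.0 and 81.1 CPM (0.69 ± 0.13). Parp1 fell from 70.1 and 68.5 to 41.8 and 40.6 CPM (-0.71 ± 0.14). In these 4 genes the LPS libraries did not overlap the controls. Nor did they in Tiparp, or in Parp11 and Parp12, which were not called. The share of all genes without such overlap was not counted.

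Tiparp rose from 29.8 and 29.0 to 42.2 and 45.8 CPM in RAW264.7 (0.62 ± 0.16, adjusted p = 0.00063). This was not called without LPS replicate 2 (0.56), by DESeq2 (0.63, adjusted p = 0.086), without TMM (0.44, adjusted p = 0.020) or with all 25 libraries in 1 fit (0.58, adjusted p = 0.016). Parp12, at 84.0 and 82.3 CPM in the controls and 96.0 and 104 CPM with LPS, missed the threshold (0.31 ± 0.11, adjusted p = 0.022). Parp11 had a log2 fold change of 0.46 with a 95% interval from -0.11 to 1.03, and Parp3 one of 0.00 with an interval from -0.77 to 0.77.

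Before stimulation, 3 of the 9 genes were higher and 4 lower in RAW264.7 than in BMDMs, near the shares of all genes called. Mouse strain and medium differ along with cell type here and cannot be told apart from it. Parp1, Parp9 and Parp12 were higher in control RAW264.7 than in control BMDMs, by 0.97 ± 0.15, 0.50 ± 0.15 and 0.52 ± 0.13, where 32.9% of 10269 genes were called up. Parp3, Parp8, Parp14 and Tiparp were lower, with differences of -1.17 ± 0.33, -2.85 ± 0.31, -1.26 ± 0.14 and -0.64 ± 0.17, where 34.7% were called down. Some of these calls rested on 1 library or on the method. Without control RAW264.7 replicate 1, Parp3 (-0.71) and Parp9 (0.40) were not called. Parp3 was also not called without control BMDM replicate 1 (-1.01), nor Parp9 without control BMDM replicate 2 (0.42). DESeq2 did not call Parp3 (-1.17, adjusted p = 0.011). Without TMM, Parp3 (-0.90, adjusted p = 0.011) and Tiparp (-0.36, adjusted p = 0.042) were not called.

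The 4 h response of RAW264.7 to LPS differed from that of BMDMs to IFN-γ-primed LPS in all 9 genes by edgeR and in 8 by DESeq2, tested as the difference of the responses. The stimuli differ by the IFN-γ, and the cells also by strain and medium, so cell type, stimulus, strain and medium cannot be told apart. The difference in log2 response was -3.96 ± 0.19 for Parp9, -3.75 ± 0.18 for Parp14, -3.57 ± 0.16 for Parp12 and -1.70 ± 0.22 for Parp10. For Parp1, whose fall was smaller in RAW264.7, it was 1.42 ± 0.32. With 8 called down and 1 up, the background was 16.4% down and 11.1% up. For Parp3 the difference, -1.68 ± 0.47, was not called without RAW264.7 control replicate 2 or LPS replicate 1 (-1.09 and -1.42), by DESeq2 (-1.68, adjusted p = 0.018) or without TMM (-1.25, adjusted p = 0.023). For Parp8, -3.73 ± 0.65 with at most 13 reads in RAW264.7, it was not called without RAW264.7 control replicate 1 (-2.95).

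**Figure D4:**
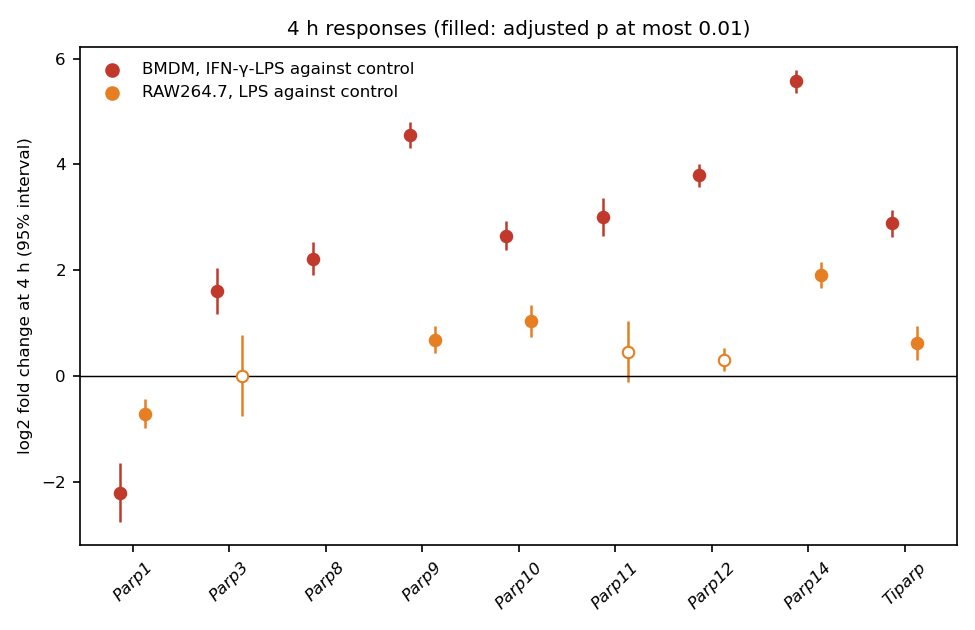
Log2 fold change at 4 h with 95% intervals, for BMDMs with IFN-γ-primed LPS against control (red, 3 against 3 libraries) and RAW264.7 with LPS against control (orange, 2 against 2). Filled points passed the adjusted p of 0.01, and Parp8 was not tested in RAW264.7. Parp14 stands at 5.57 and 1.90, and Parp1 at -2.21 and -0.71.

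Related lists were read at 4 h of IFN-γ-primed LPS, where 26% of all genes tested were called up and 25.6% down. Of 7 family genes outside the 9, 6 were tested. Zc3hav1 was called up, and Parp6 (-1.28 ± 0.27), Parp2 (-0.99 ± 0.26), which acts with Parp1 at DNA breaks, and Tnks (-0.58 ± 0.14) were called down. Tnks was named after its values were seen. Parp2 was not called without control replicate 3 or 4 h replicate 2 (-0.83 and -0.81). The median log2 fold change of the 6 was -0.28, beside -0.08 over all genes.

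Among 7 genes that remove ADP-ribose from proteins, 5 were tested at 4 h, 1 was called up and 1 down, shares no higher than the 26% and 25.6% of all genes. Adprh, a hydrolase of ADP-ribosyl-arginine, was up (1.03 ± 0.17), and Oard1, which frees ADP-ribose from acidic residues, was down (-1.99 ± 0.52). Oard1 was at 8.62 CPM in control and 2.20 CPM at 4 h, and was not called without control replicate 1 or 4 h replicate 2 (-1.51 and -1.76). Of 13 genes of NAD supply and use, 8 were tested, 4 were called up and 1 down. Nampt, the main enzyme of NAD salvage, went from 267 to 1387 CPM (2.32 ± 0.10). Cd38 and Bst1, ectoenzymes that consume NAD, had 3 and 7 reads over the 3 control libraries and 101 and 108 at 4 h. That is a ratio of 51.6 for Cd38, with a 95% counting interval from 17.2 to 254, and of 23.6 for Bst1, from 11.1 to 60.2. The fourth gene called up was Sirt1 (1.63 ± 0.15) and the one called down was Nmnat3 (-2.02 ± 0.43), both named after their values were seen.

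Of 9 partners and readers of PARPs, 3 were called up at 4 h and 0 down, beside 26% and 25.6% of all genes. These were Dtx3l, the ubiquitin ligase Rnf114 (2.70 ± 0.11) and the repair polymerase Polb (1.01 ± 0.23, not called without TMM, 0.48). Of 17 interferon signalling genes, 16 were tested, 15 were called up and 0 down, with a median log2 fold change of 4.203. Isg15 and Usp18, a ubiquitin-like protein and the protease that removes it, rose by 9.59 ± 0.20 and 9.35 ± 0.20. They had 10 and 7 reads over the control libraries and 5434 and 3257 at 4 h. The ratio was 833 for Isg15, with a 95% counting interval from 453 to 1738, and 713 for Usp18, from 346 to 1775. Ifnb1 had 0 reads over the control libraries and 83 at 4 h, at least 42.4-fold higher against a floor of 3 reads over the group. With LPS in RAW264.7, 8 of 14 interferon signalling genes tested were up and 2 down, where 15.1% of 9406 genes were up and 12.8% down.

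**Figure D5:**
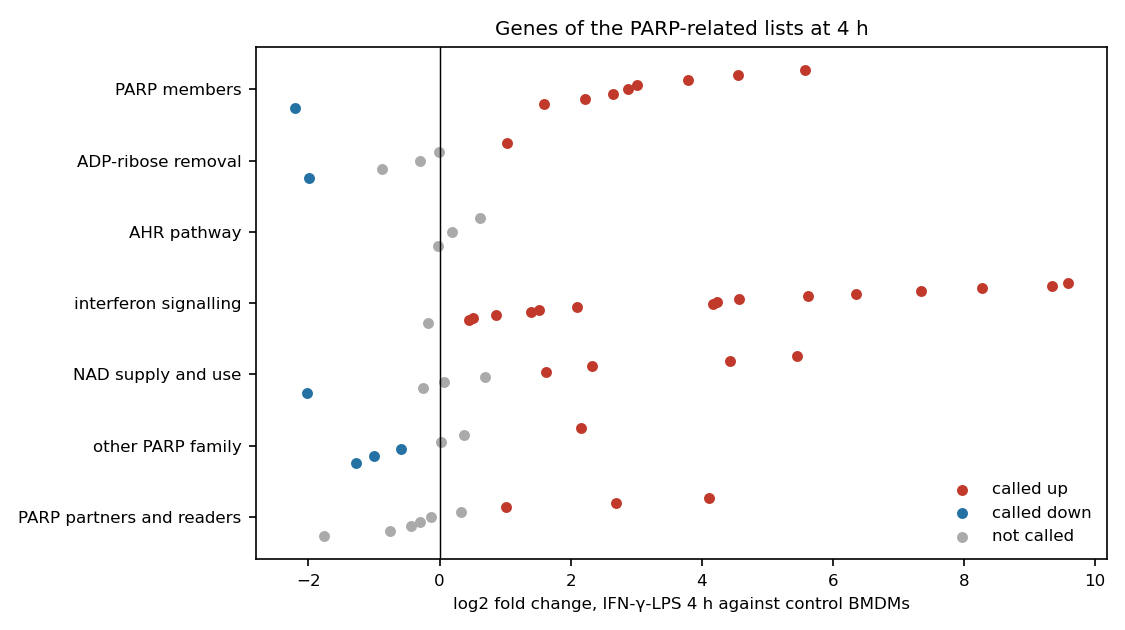
Log2 fold change at 4 h of IFN-γ-primed LPS for every tested gene of the 9 PARP members and of the 6 related lists, with 1 point per gene (red, called up; blue, called down; grey, not called). The interferon signalling genes reach 9.59, the PARP members run from -2.21 to 5.57, and the 3 AHR pathway genes are all grey.

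Ordered by level over the 9 conditions, 6 of the 9 genes were highest at 4 h of IFN-γ-primed LPS, Parp10 and Parp11 at 12 h and Parp1 in control RAW264.7. The ratio of the highest to the lowest group mean was 116 for Parp14 and 104 for Parp8, whose lowest group holds 1 and 5 reads. It was 24.5 for Parp9, 17.0 for Parp11, 15.6 for Parp12, 11.7 for Tiparp, 10.4 for Parp10, 8.86 for Parp1 and 7.33 for Parp3. Of the 8 neighbouring pairs of conditions in each order, 2 overlapped for Parp8, Parp9 and Parp14, 3 for Parp10 and Parp12, 4 for Tiparp, 5 for Parp1 and Parp11 and 7 for Parp3. For Parp14 these were control with IL-4 and IL-4 with IL-13. For Parp3 the 4 stimulated BMDM groups ran into each other, and so did all conditions below them.

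The gene most like Parp9 over the 9 group means of log2 CPM was Parp12 (Pearson r = 0.993), out of 10563 genes compared. The 9 means include groups that share a control, and the value is a description. Next to Parp9 came Ogfr and the nucleotide kinase Cmpk2, and next to Parp12 came Sp100 and Abracl. Parp14 was most like Slfn8, Igtp and Znfx1 (r from 0.992 to 0.995), and Parp10 was most like Oas3, Gm14005 and Ifit3 (0.991 to 0.996). Parp11 was most like Tarm1, Pydc4 and Ankle2 (0.986 to 0.989), Parp3 like Il18bp, Gbp9 and H2-Ab1 (0.978 to 0.992) and Parp8 like Rasa4, Ifnar2 and Mmp14 (0.986 to 0.988). Tiparp was most like Serpina3g, Tmem243 and the hexokinase Hk2 (0.977 to 0.991), and Parp1 like Trim68, Pan2 and Lyl1 (0.978 to 0.990). Among the 9 themselves, Tiparp and Parp11 had an r of 0.673, and Parp1 had a negative r with each of the others, from -0.705 with Parp10 to -0.939 with Tiparp.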

How the data were processed

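RNA-seq of rRNA-depleted, strand-specific libraries was analysed. Per the labels, the authors trimmed reads with Trimmomatic 0.33, aligned them to mm10 with STAR 2.5.1 and deposited whole-number read counts per gene, unnormalized, as unstranded, antisense and sense columns. The annotation release is not given in the sources used here. Sense counts without Rn45s were used. The 9 members, the gene lists and the comparisons were chosen with earlier results of these data known. Groups came from the labels. Counts were fitted in R 4.3.3 with edgeR 4.0.16 (TMM, filterByExpr, quasi-likelihood with robust dispersion and a mean for each group), over 9568 genes for the time course (15 libraries), 9252 for control, IL-4 and IL-13 (9), 9380 for IFN-γ-primed LPS 12 h, IL-4 and IL-13 (9), 9406 for RAW264.7 (4) and 10269 for both cells at 4 h (10). Each of 15 comparisons had its own Benjamini-Hochberg adjustment, with calls at an adjusted p of at most 0.01. Standard errors were taken from the F statistic of each test. At 1502618 counts in the shallowest library, genes with few reads have wide errors, and intervals from counts cover counting error only. Replicate pairs differed by 1.30 to 4.53 times the variance of sampling (chi-square per degree of freedom), so no pair held the same counts. This cannot tell independent samples from separate preparations of the same RNA.

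Named genes are the 9 members, Dtx3l, Zc3hav1, up to 3 genes per related list with the largest change called at 4 h and at least 5 CPM in the higher group, and the 3 genes most like each member (log2 CPM, prior count 2). Of the symbols listed, 3 cell markers were not matched. Alternatives were DESeq2 1.42.0, RLE factors, no TMM, Rn45s kept, unstranded counts, a filter at 1 count, a filter at 10 counts in each library, all 25 libraries in 1 fit, a replicate block and leaving out each library. Scripts were tested on simulated data. Promoters are RefSeq's (GRCm38.p6), with 6 of 9 members matched. Figures used Python 3.11.15 and matplotlib 3.10.9. BMDMs given LPS alone were not analysed here. Some results on related genes and sites are not reported here.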

Additional observations from a re-analysis of the deposited data

Results flagged for a closer look

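The 4 h response differed between RAW264.7 with LPS and BMDMs with IFN-γ-primed LPS for all 9 genes, by an interaction term in edgeR (adjusted p at most 0.01). DESeq2 called 8 of them. Parp3 was not called by DESeq2, without TMM or without 1 of 2 RAW264.7 libraries (control replicate 2 or LPS replicate 1), nor Parp8 without RAW264.7 control replicate 1. The log2 response in RAW264.7 minus that in BMDMs was 1.42 for Parp1, -1.68 for Parp3, -3.73 for Parp8, -3.96 for Parp9, -1.70 for Parp10, -2.64 for Parp11, -3.57 for Parp12, -3.75 for Parp14 and -2.35 for Tiparp.

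Reads on the strand opposite to the gene are not used in the main comparisons. They exceeded those of every control library, with a group mean of at least 1 CPM, in 10 cases. For Parp9 they came to 100.0 CPM at 4 h, 59.6 CPM at 12 h and 43.8 CPM at 24 h of IFN-γ-primed LPS, from 2.17 to 5.90 CPM in control BMDMs, and to 6.18 CPM in RAW264.7 with LPS. This was 10.3% of the reads on both strands of Parp9 at 4 h and 11.7% in control BMDMs. Dtx3l overlaps Parp9 on that strand. For Parp14 the opposite strand had 24.3 CPM at 4 h, 10.9 CPM at 12 h and 3.12 CPM at 24 h, or 0.537% of the reads on both strands at 4 h and 0.398% in control. For Parp12 it had 4.37 CPM at 4 h and 2.23 CPM at 12 h, and for Parp11 1.64 CPM at 4 h, from 1 to 3 reads per library. The Parp12 share at 4 h was 0.535%, beside 0.314% in control. Over all genes with Rn45s kept, each library had 93.9 to 158 sense reads per read on the opposite strand. The rule does not correct for the sense level of a gene. Whether these reads are more than a fixed share of the sense reads was not tested. The share of all genes meeting the rule of these 10 cases was not counted.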

How the results depend on the processing

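Depth limits Parp1, Parp3 and Parp8 most. Across alternatives other than leaving out a library, 1366 log2 fold changes kept direction and side of the threshold, 14 lost and 9 gained a call and 11 changed sign. With libraries left out these numbers were 1841, 23, 8 and 18. Mean CPM levels without TMM or with Rn45s kept moved by over 1 SD in 110 cases and by less in 52. The cause of the changes was not tested, except that Parp1 was not among the genes tested with at least 10 counts in every library.

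Counts of the 9 genes moved by over 1.5 times as follows. Called down at 1 h were 0 with DESeq2 and 0 with at least 10 counts, and the latter also gave 0 down at 4 h, at 12 h and from 1 to 4 h, and 0 up in the difference of responses. Called down at 24 h was 1 with RLE factors, without TMM, with Rn45s kept and with unstranded counts. Called up from 12 to 24 h was 1 without TMM and without the filter. DESeq2 gave 0 down with IL-13 and 0 down for IFN-γ-primed LPS against IL-13, and without TMM 2 were down in control RAW264.7 against BMDMs. With libraries left out, the numbers down at 1 h, at 24 h, with IL-13 and against IL-13, and up from 12 to 24 h and with IL-13, ran from 0 to 1. Smaller moves were 3 up in RAW264.7 with LPS by DESeq2, without TMM and with all 25 libraries in 1 fit, and 3 down in control RAW264.7 against BMDMs by DESeq2. The difference of responses had 7 down by DESeq2 and without TMM, where also 3 were up from 4 to 12 h and 5 down from 12 to 24 h. With libraries left out, 3 to 4 were up in RAW264.7 with LPS, 2 to 3 up and 3 to 4 down in control RAW264.7 against BMDMs, 2 to 3 up and 3 to 4 down from 4 to 12 h, 5 to 6 down from 12 to 24 h and 7 to 8 down in the difference. With at least 10 counts, counts also fell by 1 where fewer of the 9 were tested.

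Without TMM the median of all genes shifted by -0.53 at 4 h, and Parp11 at 1 h was at -0.082, Parp3 from 1 to 4 h at -0.18, Parp12 from 4 to 12 h at 0.061, Parp10 between IL-13 and IL-4 at 0.0204 and Parp3 in RAW264.7 at -0.17. DESeq2 put the last pair at 0.0049 and -0.014. Parp3 in RAW264.7 was at -0.011 with at least 10 counts and at -0.038 with all 25 libraries in 1 fit. With libraries left out, sign changes came with ranges of -0.021 to 0.36 for Parp11 at 1 h, -0.0037 to 0.24 for Parp3 from 12 to 24 h and -0.43 to 0.61 for Parp3 in RAW264.7. With IL-4 they were -0.39 to 0.054 for Parp1, -0.37 to 0.14 for Parp10 and -0.11 to 0.045 for Parp14, and with IL-13 -0.14 to 0.067 for Parp10. Between IL-13 and IL-4 they were -0.40 to 0.057 for Parp1, -0.10 to 0.62 for Parp3, -0.18 to 0.32 for Parp10 and -0.015 to 0.21 for Parp11.

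Same-numbered libraries deviated together little in the time course (mean correlation 0.0216, beside -0.0109 for differently numbered ones). A small mean cannot exclude that the numbers pair some samples, and the main fits used no pairing. A replicate block gave 1 down at 24 h and 1 up from 12 to 24 h, Parp1 in both, and values of 0.0014 for Parp10 between IL-13 and IL-4 and -0.026 for Parp3 in RAW264.7.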
